A study of Saccharomyces cerevisiae with 18 samples.

Results

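Yrr1 is a zinc cluster transcription factor of budding yeast that activates genes of multidrug resistance, among them *SNQ2*, which encodes a plasma membrane transporter of the ATP-binding cassette family. The comparison described here set yeast carrying the YJM789 allele of the gene (Yrr1Y) against yeast carrying the S96 allele (Yrr1S). Both were grown in YPD, a rich medium with glucose, without 4NQO (4-nitroquinoline-N-oxide, a DNA-damaging mutagen). The comparison asks what the natural variation in 1 transcription factor does to the transcriptome in the absence of 4NQO. Of the 18 RNA-Seq libraries of the series, 4 belonged to this comparison, S1 and S2 with Yrr1Y and S3 and S4 with Yrr1S, and every expressed gene was compared, 5766 of 6713 loci with counts. The other 14 libraries came from Yrr1IE, the S96 allele with the I775E change, and from all 3 alleles in YPD with 4NQO or in glycerol.

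All groups used here shared 1 background. The host was S96, a laboratory strain (*MATa*, *lys5*) isogenic with the S288c reference, with the chromosomal coding region of *YRR1* replaced by a hygromycin-resistance gene, so that the controls lacked chromosomal *YRR1* too. Each allele was expressed from a plasmid with the gene's own promoter and terminator, and the plasmid was kept with G418. YJM789 is a strain derived from a clinical isolate, but in this experiment it contributed only its *YRR1* allele. YPD cultures were grown for 2.5 h, beside subcultures with 0.25 µg/ml 4NQO for the same time. Cells for glycerol were washed, diluted into glycerol and grown for longer, so carbon source, time and wash cannot be told apart when glycerol is set against YPD. There were 2 libraries per condition from duplicated cultures, and which libraries of different media came from a common culture cannot be read from the labels. P-values therefore measure the spread between these libraries.

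Total counts in genes were 1851373 and 1863963 with Yrr1Y and 2062445 and 2826771 with Yrr1S, so S4 was the deepest. Pearson's r of log2 CPM (counts scaled to a common library total) across genes, which are not independent replicates, was 0.979 between the Yrr1Y libraries, 0.982 between the Yrr1S libraries, and from 0.975 to 0.977 between alleles. The *MATa* label was checked against mating-type genes. The 7 **a**-cell genes listed together took 3633 and 3519.9 CPM with Yrr1Y and 3509.9 and 2763 with Yrr1S, and all had counts in each library. The 4 alpha-cell genes took from 56.3 to 65.5 CPM, of which most fell on *SAG1* (alpha-agglutinin), and 1 of them had no count in 3 of the libraries. The **a**-cell sums of the alleles nearly met, and the alpha-cell sums overlapped.

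With 1 quasi-likelihood model (edgeR) over the 18 libraries and Benjamini-Hochberg adjustment over all genes, 51 genes differed between the alleles in YPD at an adjusted p under 0.05, which is 0.884% of those tested. Expression was higher with Yrr1Y for 42 genes (0.728%) and lower for 9 (0.156%). The higher set included enzymes that make and use trehalose and glycogen, the storage carbohydrates of yeast, and enzymes and transporters that bring glucose into metabolism. Of the 42, 2 were on the trehalose list, 5 on the glycogen list, 6 among kinases and glycolysis and 2 among hexose transporters. *HXT1*, a low-affinity glucose transporter, *CHA1*, a serine and threonine deaminase, and genes of ribosome assembly made up much of the lower set. The fold changes were modest, from 1.45-fold for *FLP1* to 2.76-fold for *EEB1* among the higher genes. The median log2 fold change of all genes was 0.0031. The scaling itself sets this value near 0, so a general shift between the alleles could not be seen. Without adjustment, 670 genes had a p under 0.05, 367 higher and 303 lower with Yrr1Y.

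**Figure D1:**
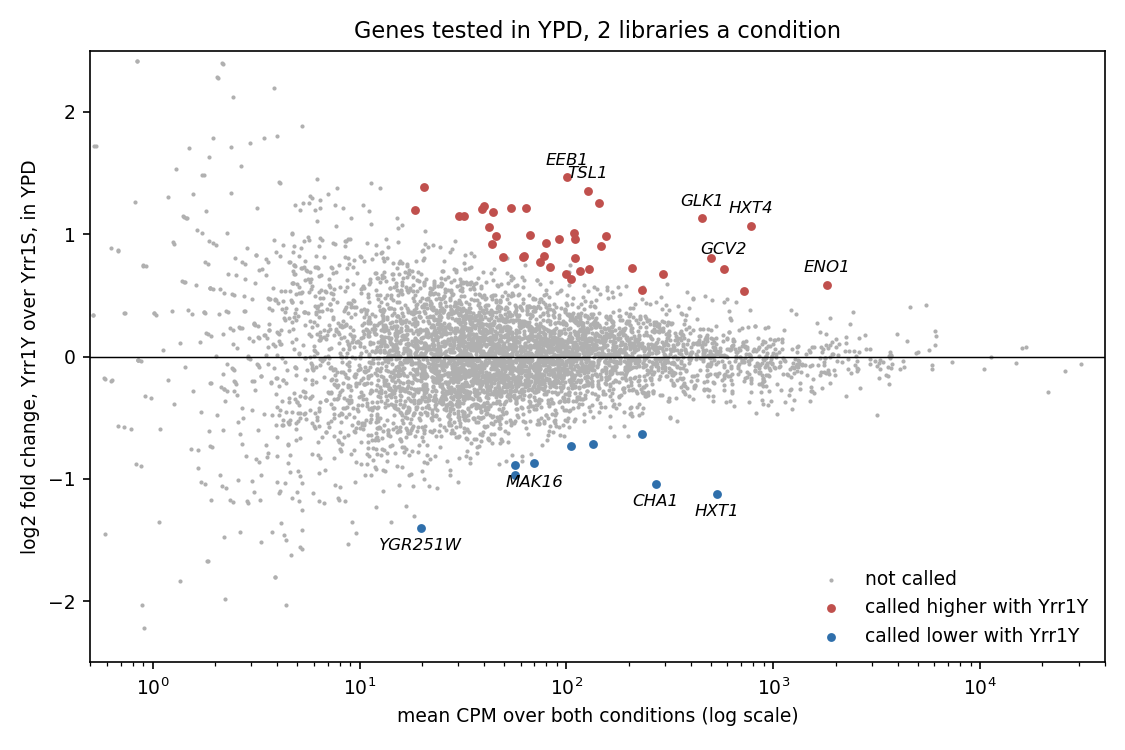
Log2 fold change of Yrr1Y over Yrr1S in YPD (y axis) against the mean CPM of both conditions (x axis, log scale), 1 point per gene. The 42 genes called higher (red) and the 9 called lower (blue) lie mostly above 20 CPM, and 46 genes lie outside the axes.

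Upstream sequences were examined for letters that are known from each class of gene. The stress response element (STRE, AGGGG) is the motif bound by Msn2 and Msn4, activators of the general stress response, and the PAC element (GATGAG) is common upstream of genes of ribosome synthesis. The windows of 3 storage carbohydrate and glucose kinase genes are shown because they carry several STRE matches, and those of 4 ribosome assembly genes because each carries PAC. Each runs from 300 to 90 bases before the start codon, is 211 bases long, comes from the RefSeq copy of the R64 genome, and is written 5′ to 3′ on the gene's strand with the matches on either strand in capitals.
TSL1: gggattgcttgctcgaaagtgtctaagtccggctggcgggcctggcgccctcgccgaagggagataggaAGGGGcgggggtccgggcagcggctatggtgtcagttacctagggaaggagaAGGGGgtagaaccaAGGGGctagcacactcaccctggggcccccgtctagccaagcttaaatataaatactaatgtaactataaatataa
GLK1: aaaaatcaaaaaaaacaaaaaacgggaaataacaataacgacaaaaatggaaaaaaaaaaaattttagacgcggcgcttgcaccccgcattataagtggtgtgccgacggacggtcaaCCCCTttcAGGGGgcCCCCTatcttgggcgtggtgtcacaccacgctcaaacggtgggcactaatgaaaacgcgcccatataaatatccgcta
PGM2: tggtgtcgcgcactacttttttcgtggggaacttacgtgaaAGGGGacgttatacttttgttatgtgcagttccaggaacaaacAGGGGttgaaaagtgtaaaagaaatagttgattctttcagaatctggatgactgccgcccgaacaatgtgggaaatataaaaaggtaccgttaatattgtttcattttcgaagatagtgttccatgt
MAK16: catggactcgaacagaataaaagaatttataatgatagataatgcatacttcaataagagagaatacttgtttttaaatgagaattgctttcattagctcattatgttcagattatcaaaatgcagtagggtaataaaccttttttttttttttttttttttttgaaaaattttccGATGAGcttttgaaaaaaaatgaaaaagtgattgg
RPF1: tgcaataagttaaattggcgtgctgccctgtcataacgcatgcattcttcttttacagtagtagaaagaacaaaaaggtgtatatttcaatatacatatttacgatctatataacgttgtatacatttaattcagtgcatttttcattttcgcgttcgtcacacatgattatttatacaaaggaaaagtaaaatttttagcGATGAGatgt
RRP1: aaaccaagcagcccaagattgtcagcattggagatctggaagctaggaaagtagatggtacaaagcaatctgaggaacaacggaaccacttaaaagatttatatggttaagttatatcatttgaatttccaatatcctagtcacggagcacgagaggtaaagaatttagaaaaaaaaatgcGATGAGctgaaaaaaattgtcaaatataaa
RLP7: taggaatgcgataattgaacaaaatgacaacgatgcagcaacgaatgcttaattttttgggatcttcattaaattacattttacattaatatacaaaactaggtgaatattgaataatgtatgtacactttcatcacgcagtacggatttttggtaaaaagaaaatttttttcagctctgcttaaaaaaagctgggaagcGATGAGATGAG
In R64 coordinates these windows are chrXIII:70324-70534 for *TSL1* and chrIII:50538-50748 for *GLK1*, both on the plus strand, and chrXIII:477696-477906 for *PGM2* on the minus strand. They are chrI:101235-101445 for *MAK16*, chrIV:618396-618606 for *RRP1* and chrXIV:627232-627442 for *RLP7* on the minus strand, and chrVIII:281195-281405 for *RPF1* on the plus strand.

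The STRE matches began 231, 179 and 165 bases before the start codon of *TSL1*, at 182, 174 and 167 for *GLK1*, and at 259 and 216 for *PGM2*. PAC began at 124 bases for *MAK16*, at 119 for *RRP1*, at 99 for *RPF1*, and at 100 and 95 for *RLP7*, where the matches overlap. Counted over both strands of the full 300 bases before the start codon, 23 of the 41 higher genes with a window held AGGGG (56.1%), against 22.6% of 5613 windows of tested genes. GATGAG was in 8 of the 9 windows of lower genes (88.9%) and in 18.7% of all windows. *HXT1* was the lower gene without it. Among the 90 ribosome assembly factors, 77 held GATGAG (85.6%), and 83 (92.2%) held AAAATTT, the core of another element of these genes, against 25.2% of all. *FLP1*, which lies on the 2-micron plasmid, had no window. A match describes these letters and was not tested as a binding site, and *EEB1*, *HXK1*, *GPH1* and *HXT4*, all higher with Yrr1Y, held no AGGGG in the window.

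Trehalose, a disaccharide of glucose, is made from UDP-glucose and glucose 6-phosphate by a complex of Tps1, Tps2, Tps3 and Tsl1, and is split by trehalases. Both Yrr1Y libraries were above both Yrr1S libraries for all 7 trehalose genes, against 21.7% of all genes with that order. Of the 7, 2 were called higher, where 0.728% of all genes were. *TSL1* (YML100W, chrXIII:70624-73920), the large regulatory subunit of the complex, had 179.7 CPM in S1 and 184 in S2 with Yrr1Y, and 83.7 in S3 and 59.7 in S4 with Yrr1S. The alleles were well separated, and the level was 2.56-fold higher with Yrr1Y (log2 fold change 1.36, SE 0.17, edgeR adjusted p = 1.87e-05). *TPS1* (YBR126C, chrII:488905-490392), the synthase itself, had 343 and 375 CPM with Yrr1Y and 236 and 215 with Yrr1S. Its log2 fold change was 0.68 (SE 0.14, edgeR adjusted p = 0.00749). The remaining 5 did not pass the test in edgeR but had positive values, and DESeq2 also called *NTH1*. They ran from 0.28 for *TPS3* to 0.86 for *ATH1*, the acid trehalase. *TPS2*, the phosphatase of the complex, was at 0.54 and *NTH1*, the neutral trehalase, also at 0.54. The median of the list was 0.54 and stayed between 0.50 and 0.72 with any 1 of the 4 libraries left out. Enzymes of synthesis and of breakdown were thus on the same side.

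Glycogen genes gave a similar picture, with 5 of 16 called, all higher with Yrr1Y, where 0.728% of all genes were. The list's median was 0.45 (0.42 to 0.52 with 1 library left out). Both Yrr1Y libraries were above both Yrr1S libraries for 10 of the 16 genes (62.5%, against 21.7% of all genes) and below for 1, *GLC8* (6.25%, against 20.3%). *PGM2* (YMR105C, chrXIII:475897-477606), the main phosphoglucomutase, which links glucose 6-phosphate to glucose 1-phosphate, had 62.0 and 61.1 CPM with Yrr1Y and 26.9 and 27.3 with Yrr1S. Replicates were nearly equal and the level was 2.27-fold higher with Yrr1Y (SE of the log2 fold change 0.20, edgeR adjusted p = 0.00321). Its paralog *PGM1* had an adjusted p above 0.05, with 137 ± 10.9 FPKM with Yrr1Y and 134 ± 5.59 with Yrr1S (SD, n = 2), as deposited per length. *GSY2*, the main glycogen synthase, had 129 and 160.1 CPM with Yrr1Y and 94.7 and 55.3 with Yrr1S (log2 fold change 0.96, SE 0.18, edgeR adjusted p = 0.00572). *GSY1*, the second synthase, was at 0.93, and *GLC3*, the branching enzyme, at 0.82. Glycogen phosphorylase, *GPH1*, which releases glucose 1-phosphate, had 51.6 and 60.5 CPM with Yrr1Y and 27.4 and 20.9 with Yrr1S (1.23, SE 0.23, edgeR adjusted p = 0.00572). *UGP1*, which makes the UDP-glucose used by both pathways, was just outside the threshold at 0.47 (SE 0.12, edgeR adjusted p = 0.0518), with 703 and 678 CPM against 509 and 489, and was called in DESeq2. Without S4, *GSY2* was at 0.59, the lowest of its values with 1 library left out, and *GLC3* was at 0.55 without S2. *GSY2* did not pass the test without S2 or without S4, and *GLC3* passed with none of the 4 libraries left out.

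**Figure D2:**
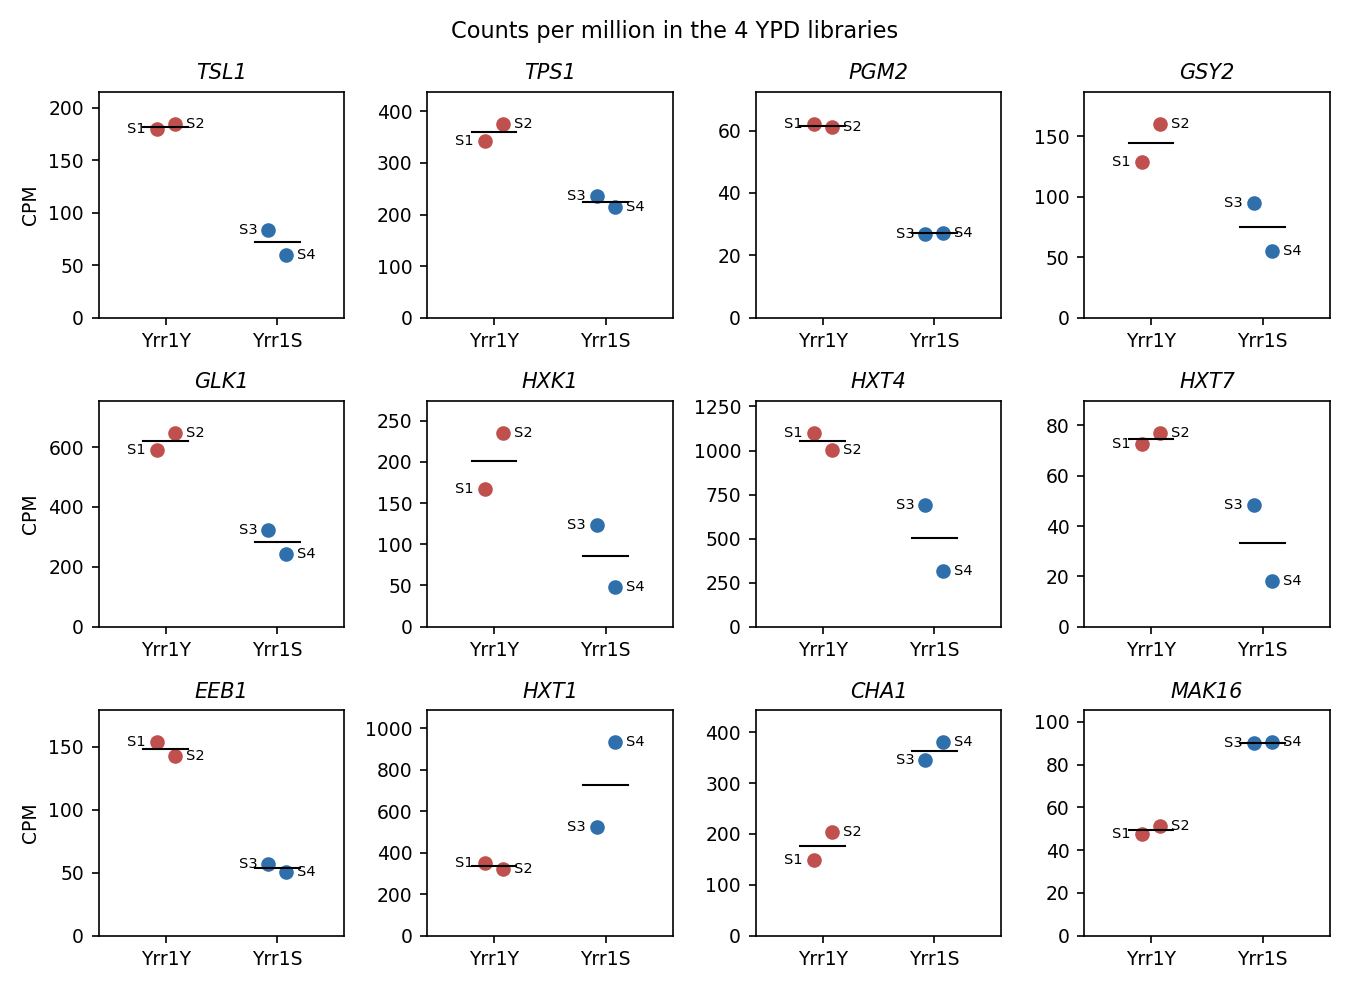
CPM (y axis, from 0) in each of the 4 YPD libraries for 12 named genes, with Yrr1Y in red, Yrr1S in blue and the mean of 2 libraries as a bar. S3 and S4 lie close together for *PGM2*, *EEB1* and *MAK16* and far apart for *HXK1*, *HXT4*, *HXT7* and *HXT1*, where S4 is the farther from the Yrr1Y libraries.

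Glucose is trapped in the yeast cell by 3 kinases, Hxk1, Hxk2 and Glk1, with Emi2 a paralog of Glk1. *GLK1* (YCL040W, chrIII:50838-52340) had 591 and 646 CPM with Yrr1Y and 323 and 242 with Yrr1S. It was 2.19-fold higher with Yrr1Y (log2 fold change 1.13, SE 0.14, edgeR adjusted p = 1.87e-05). *HXK1* (YFR053C, chrVI:253592-255049) had 168 and 235 CPM with Yrr1Y, 124 in S3 and 48.6 in S4, with a log2 fold change of 1.25 (SE 0.24, edgeR adjusted p = 0.00572). The gap between S3 and S4 was larger than that between S3 and S1, and the value was 0.69 without S4 and 2.02 without S3. The call was lost without S2 and without S4. *EMI2* was higher by 0.80 (SE 0.18, edgeR adjusted p = 0.0184), with 109 and 171 CPM against 88.2 and 72.7. Without S2 it was at 0.42 and without S4 at 0.65, and neither value passed the test. *HXK2*, the kinase known to dominate in glucose medium, was not called. In the deposited FPKM, which are per length, *HXK2* had 1114 ± 56.1 with Yrr1Y and 1142 ± 9.62 with Yrr1S (SD, n = 2), more than *GLK1* at 387 ± 29.3 and 177 ± 46.0 or *HXK1* at 129.8 ± 32.3 and 56.1 ± 37.3. The isozyme genes that differed between the alleles were thus the less abundant ones.

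The same held further down glycolysis. Of 27 kinase and glycolysis genes 6 were called, all higher with Yrr1Y, where 0.728% of all genes were. The list's median was only 0.081 (-0.018 to 0.16 with 1 library left out). *TDH1*, the least abundant of the 3 glyceraldehyde-3-phosphate dehydrogenase genes, had 138 and 151 CPM with Yrr1Y and 81.2 and 63.2 with Yrr1S (log2 fold change 1.01, SE 0.19, edgeR adjusted p = 0.00489). *ENO1*, an enolase gene, had 2147 and 2236 CPM against 1482 and 1434 (0.59, SE 0.11, edgeR adjusted p = 0.00572). *PYK2*, the minor pyruvate kinase, was at 0.81 (edgeR adjusted p = 0.0346), with 55.1 and 70.7 CPM against 41.9 and 30.4. The abundant isozyme genes *TDH3*, *TDH2*, *ENO2* and *CDC19* were not called. In FPKM *TDH3* was at 28294 ± 983 with Yrr1Y and 29186 ± 3085 with Yrr1S, against 136 ± 10.4 and 67.9 ± 15.8 for *TDH1*. Some of these genes, among them the *TDH* and *ENO* genes, share long identical stretches with their paralogs. Reads may therefore have been assigned to the wrong copy, and this was not analysed here.

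Hexose enters through a family of transporters that differ in affinity. *HXT1* (YHR094C, chrVIII:290913-292625), whose product has low affinity, had 348 and 323 CPM with Yrr1Y, 524 in S3 and 933 in S4, and was 2.17-fold higher with Yrr1S (log2 fold change -1.12, SE 0.21, edgeR adjusted p = 0.00489). In the opposite direction, *HXT4* (YHR092C, chrVIII:287081-288811) had 1098 and 1005 CPM with Yrr1Y, 693 in S3 and 313 in S4 (1.07, SE 0.25, edgeR adjusted p = 0.0292). *HXT7*, a high-affinity transporter, had 72.5 and 76.9 CPM with Yrr1Y, 48.3 in S3 and 18.2 in S4 (1.21, SE 0.26, edgeR adjusted p = 0.0156). For all 3 genes no library overlapped, and the Yrr1S libraries were spread more widely than the Yrr1Y libraries. Without S4 the log2 fold changes were -0.66 for *HXT1*, 0.59 for *HXT4* and 0.61 for *HXT7*, and without S3 they were -1.50, 1.72 and 2.01. None passed the test without S2 or without S4, and *HXT1* and *HXT4* did not pass in DESeq2. *HXT3* and *HXT2*, which were among the most abundant of the family, were not called, with 1449 ± 143 and 641 ± 141 FPKM with Yrr1Y and 1400.5 ± 84.6 and 582 ± 139 with Yrr1S. Over the 20 transporters and sensors tested, 2 were called higher and 1 lower, where 0.728% and 0.156% of all genes were. The median of the list was 0.26, which moved to -0.044 without S1. *HXT6* is nearly identical to *HXT7*, had at most 3.48 CPM, and the counting may have divided reads between them.

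Few of the general stress genes passed the test one by one. Of 41 tested, only *GAD1*, glutamate decarboxylase, was called higher in edgeR, where 0.728% of all genes were. *GAD1* had 45.8 and 41.3 CPM against 26.4 and 13.8 (log2 fold change 1.15, SE 0.27, edgeR adjusted p = 0.0301). It was at 0.70 without S4 and 1.63 without S3, and only the latter passed. Both Yrr1Y libraries were nevertheless above both Yrr1S libraries for 26 of the 41 (63.4%, against 21.7% of all genes) and below for 1. With an unadjusted p under 0.05, 15 were higher (36.6%, against 6.36% of all genes) and 1 lower. The list's median was 0.45 (0.34 to 0.52 with 1 library left out). *HSP12*, *DDR2* and *HSP26* were each at most 18.1 CPM in these 4 libraries, so these abundant products of stressed cells were near the bottom of the range with both alleles. *DDR2* had 12.8 and 9.62 CPM with Yrr1Y and 5.48 and 6.32 with Yrr1S, and did not pass the test. DESeq2 called 4 of the list, *GAD1*, *HSP104*, *MSC1* and *PEP4*. Heat shock proteins and chaperones had no call among 26 in edgeR or DESeq2, and a median of -0.048 (-0.19 to 0.046 with 1 library left out). Of the 26, 6 had an unadjusted p under 0.05 (23.1%, against 11.6% of all genes), 3 on each side.

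Ribosome assembly factors lay on the other side. These proteins process ribosomal RNA and build the subunits in the nucleolus, and their genes are known to be co-regulated with growth. Of the 90 tested, 89 had a negative log2 fold change. Both Yrr1Y libraries were below both Yrr1S libraries for 72 (80.0%, against 20.3% of all genes). Only 3 were called lower in edgeR, where 0.156% of all genes were, and DESeq2 added *ERB1*. At an unadjusted p under 0.05, 38 were lower (42.2%, against 5.25% of all genes) and 0 were higher. The median was -0.36 (-0.47 to -0.29 with 1 library left out). *MAK16* (YAL025C, chrI:100225-101145), a factor of the large subunit, had 47.5 and 51.5 CPM with Yrr1Y and 90.2 and 90.5 with Yrr1S (log2 fold change -0.87, SE 0.19, edgeR adjusted p = 0.0156). *RRP1*, which acts on the same subunit, had 41.7 and 35.1 CPM against 73.7 and 76.3 (-0.97, SE 0.23, edgeR adjusted p = 0.0301), and *RLP7* had 113 and 90.5 against 161 and 172 (-0.71, SE 0.17, edgeR adjusted p = 0.0412). *RPF1*, which also has a role in large subunit assembly but was not on the list, was at -0.89 (40.6 and 38.5 CPM against 66.8 and 79.0, edgeR adjusted p = 0.0412). The calls of *MAK16*, *RRP1*, *RLP7* and *RPF1* rested on all 4 libraries. With 1 library left out, *MAK16* ran from -0.95 to -0.83 and *RRP1* from -1.12 to -0.87. *RLP7* then ran from -0.90 to -0.58 and *RPF1* from -1.02 to -0.77. The other called lower genes were *TIF35*, a subunit of initiation factor eIF3, at -0.63, *KEL3*, a kelch repeat protein gene, at -0.73, and YGR251W at -1.40, which had only 15 and 23 counts with Yrr1Y and 54 and 77 with Yrr1S. None of the 135 genes on the cytosolic ribosomal protein list, which includes the RNase P subunit gene *RPP1*, was called in edgeR or DESeq2. With an unadjusted p under 0.05, 24 were lower (17.8%, against 5.25% of all genes) and 0 higher. The median of the 135 was -0.15 (-0.28 without S2 and -0.072 without S4), and only 12 values were positive. Both Yrr1Y libraries were below for 50 (37.0%, against 20.3% of all genes) and above for 1. The 66 mitochondrial ribosomal protein genes, also without a call in either tool, had a median of -0.10 (-0.23 without S2 and -0.016 without S1). Of the 66, 4 had an unadjusted p under 0.05 (6.06%, against 11.6% of all genes).

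**Figure D3:**
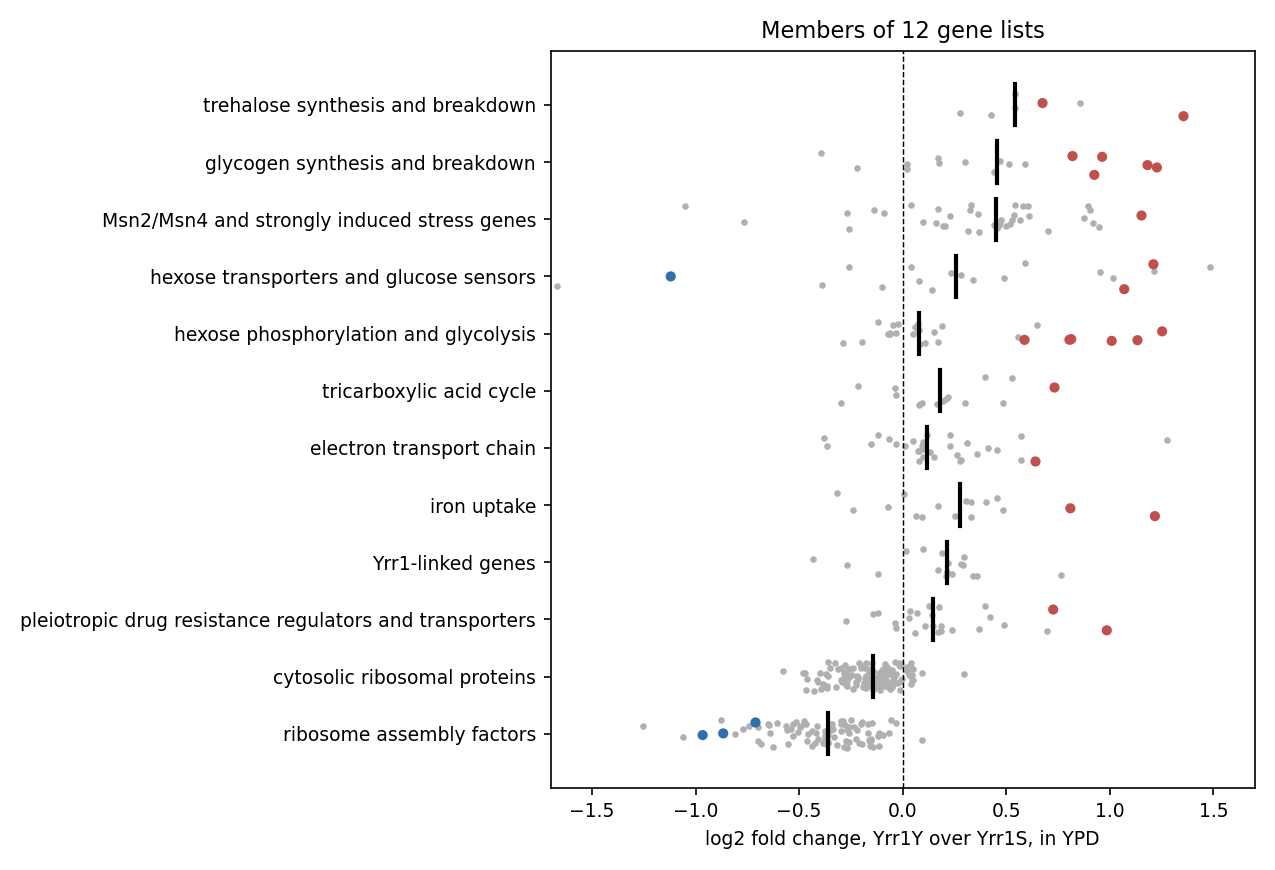
Log2 fold change of Yrr1Y over Yrr1S in YPD (x axis) for each tested member of 12 gene lists, with called members in red (higher) or blue (lower), other members in grey and the list's median as a bar. The median runs from 0.54 for the trehalose genes to -0.36 for the ribosome assembly factors, the dashed line marks the median of all genes, and 3 members lie outside the axis.

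The pair with the smallest adjusted p of all outside these lists were *EEB1* and *CHA1*. *EEB1* (YPL095C, chrXVI:368071-369441), which makes ethyl esters of medium-chain fatty acids, had 154 and 143 CPM with Yrr1Y and 57.3 and 50.2 with Yrr1S (log2 fold change 1.47, SE 0.16, edgeR adjusted p = 2.22e-06). *CHA1* (YCL064C, chrIII:15798-16880), which degrades serine and threonine, had 149.6 and 204 CPM with Yrr1Y and 345 and 380.5 with Yrr1S, 2.05-fold higher with Yrr1S (-1.04, SE 0.15, edgeR adjusted p = 0.000157). Both kept their call with any 1 of the 4 libraries left out, as did *GLK1* and *TSL1*, and no other gene did. In edgeR, 1 of 44 amino acid synthesis genes and 1 of 13 one-carbon and glycine cleavage genes were called, where 0.884% of all genes were. With an unadjusted p under 0.05, 5 amino acid synthesis genes were higher and 0 lower (11.4% of the list). For the one-carbon list 4 were higher and 2 lower (46.2%), against 11.6% of all genes. *SER3*, the first enzyme of serine synthesis from phosphoglycerate, had 186 and 195 CPM against 100.2 and 104 (0.90, SE 0.20, edgeR adjusted p = 0.0186). *GCV2*, the glycine decarboxylase subunit, had 699.8 and 738 CPM against 389.6 and 482 (0.72, SE 0.14, edgeR adjusted p = 0.00572). *GCV1*, at 0.59, did not pass the test. DESeq2 also called *ARG1* of the amino acid list.

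Electron transport and tricarboxylic acid cycle genes contributed 2 calls in edgeR, where 0.884% of all genes were called. DESeq2 added *CYT1* and *CIT1*. *NDI1*, the internal NADH dehydrogenase, was at 0.64 (125 and 132 CPM against 92.2 and 73.5, edgeR adjusted p = 0.0447) and was 1 of 31 electron transport genes, whose median was 0.12 (0.21 without S1 and 0.024 without S4). *LSC2*, a subunit of succinyl-CoA ligase, was at 0.73 (89.3 and 118 CPM against 63.3 and 61.6, edgeR adjusted p = 0.0292) and was 1 of 16 tricarboxylic acid cycle genes, whose median was 0.18 (0.12 without S4). Transcripts of the mitochondrial genome had at most 2 counts in any of the 4 libraries and could not be compared. *PIC2*, a mitochondrial carrier, was at 0.995, and *AIM17* at 0.82.

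Iron uptake genes gave 2 calls of 16, where 0.884% of all genes were called, and a median of 0.28 (0.16 without S1). Both Yrr1Y libraries were above both Yrr1S libraries for 9 (56.25%, against 21.7% of all genes) and below for 1. With an unadjusted p under 0.05, 4 were higher (25%, against 6.36% of all genes) and 0 lower. *SIT1*, a siderophore transporter, had 102 and 76.9 CPM with Yrr1Y and 39.9 and 37.1 with Yrr1S (log2 fold change 1.22, SE 0.23, edgeR adjusted p = 0.00572). *FET3*, the multicopper oxidase of high-affinity uptake, had 699.8 and 577 CPM against 394 and 336 (0.81, SE 0.17, edgeR adjusted p = 0.0111). Its partner permease *FTR1* was at 0.48 and did not pass the test (edgeR adjusted p = 0.127).

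The genes closest to Yrr1 itself were not called. *YRR1* (YOR162C) had 80.0 and 96.7 CPM with Yrr1Y and 117 and 122 with Yrr1S (log2 fold change -0.43, SE 0.17, edgeR adjusted p = 0.297). The transcript was therefore present from both plasmids, as the labels state. Reads of Yrr1Y were aligned to the S288c sequence, from which the allele differs, and what this took from its count was not tested. *SNQ2* (YDR011W) had 406 and 394 CPM with Yrr1Y and 316 and 309 with Yrr1S (0.36, SE 0.14, edgeR adjusted p = 0.296), without overlap between the alleles but short of the threshold. *SNG1* at 0.29, *FLR1* at 0.22, *SGE1* at 0.34, *YOR1* at 0.28 and *YRM1*, a regulator related to Yrr1, at 0.29 had the same order, and none passed the test. In all, 9 of the 18 Yrr1-linked genes had both Yrr1Y libraries on top, where the share among all genes was 21.7%, and 2 had them below (11.1%, against 20.3%). Of the 18, 0 were called in edgeR or in DESeq2, 2 had an unadjusted p under 0.05 (*SNQ2* higher and *YRR1* lower), a share of 11.1% against 11.6% of all genes, and the median was 0.21 (0.095 without S1 and 0.10 without S3). The list was drawn up from genes that earlier work ties to Yrr1 and includes genes that the study of these cells selected. Among 25 other regulators and transporters of pleiotropic drug resistance, the polyamine transporters *TPO4* and *TPO1* were higher, at 0.99 (185 and 227 CPM against 133 and 77.4, edgeR adjusted p = 0.00572) and 0.73 (274 and 244 CPM against 176 and 138, edgeR adjusted p = 0.0156). Without S4 *TPO4* was at 0.62 and did not pass the test. *PDR5*, the main drug efflux pump, had 947 and 937 CPM against 919 and 925 and was at 0.031. Of these 25 genes 2 were called, where 0.884% of all genes were, and the list's median was 0.14. Both Yrr1Y libraries were above for 15 (60%, against 21.7% of all genes) and below for 1 (4%, against 20.3%). With an unadjusted p under 0.05, 5 were higher (20%, against 6.36% of all genes) and 0 lower.

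The remaining called genes were all higher with Yrr1Y. *COS8*, of a subtelomeric family with near-identical members, was at 0.96, *GPX2*, a glutathione peroxidase, at 1.20, *LAP4*, a vacuolar aminopeptidase, at 0.99, and *VPS73* at 1.15. *CWC23*, a factor associated with the spliceosome, was at 1.39 on 51 and 52 counts against 23 and 28, and *SIP2*, a subunit of the Snf1 kinase, at 1.20 on 42 and 48 against 21 and 30. *ADH5*, an alcohol dehydrogenase, was at 0.67, *BDH1*, butanediol dehydrogenase, at 0.54, *PHD1*, a regulator of filamentous growth, at 0.82, and *TMN2* at 0.77. Log2 fold changes were 0.70 for YNL134C, 1.06 for YNL200C and 0.92 for YBR056W. *AGA2*, a subunit of **a**-agglutinin, was at 0.72, with the other 6 **a**-cell genes not called. *FLP1*, the recombinase of the 2-micron plasmid, had 856 and 858 CPM against 614 and 569.8 (0.53, edgeR adjusted p = 0.0142), while *REP1* and *REP2* of that plasmid were at 0.23 and 0.15 and were not called. *GLK1* overlaps YCL042W by 106 bases and *HXK1* overlaps YFR052C-A by 143, with 14 and 57 counts on those loci in the 4 libraries together, and *GPH1* overlaps a pair of loci with 0 counts. Without strand, reads in the shared bases cannot be told apart.

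How far the calls rest on single libraries was measured by leaving each out. All 51 called genes had no overlap between the alleles, where 21.7% of all genes had both Yrr1Y libraries above and 20.3% had both below. All 51 also kept their sign with each library left out. The 51 were chosen with these same 4 libraries, so both counts are descriptions. The number called fell to 24 without S1 and to 42 without S3, but to 5 without S2 and to 7 without S4. Of the full set, 20, 28, 5 and 6 genes respectively were called again, and 18 of the 51 were called in none of the 4 fits. S4 was farther than S3 from the Yrr1Y mean for 41 of the 51 genes (80.4%), against 54.7% of all genes. DESeq2 called 47 of the 51. There *HXT1* and *HXT4* did not pass, and *CWC23* and YGR251W were given no adjusted p. S4 was also the library with the most counts. The part of depth in its position was not tested.

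**Figure D4:**
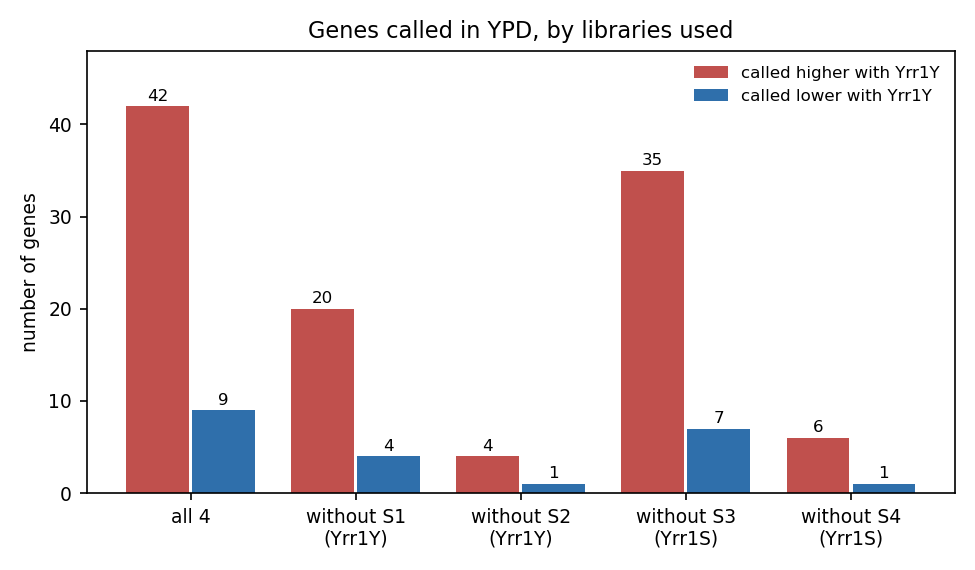
Number of genes called higher (red) or lower (blue) with Yrr1Y in YPD (y axis) in the fit with all libraries and with each of the 4 libraries left out (x axis). The higher count is 42 with all libraries and falls to 4 without S2 and to 6 without S4.

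The same contrast in other media used other libraries. In 4NQO only 3 genes (0.052%) differed between Yrr1Y and Yrr1S, and none of them was among the 51. Of the 42 genes higher with Yrr1Y in YPD, 7 were on that side in 4NQO, where 50.3% of all genes were, and their median log2 fold change went from 0.94 to -0.15. Of the 9 lower genes, 1 was on that side. For *GLK1* the libraries with 4NQO had 1652 and 1632 CPM with Yrr1Y and 1891 and 1711 with Yrr1S, all higher than in YPD and with Yrr1S above. *TSL1* had 529.6 and 596 CPM against 679 and 626. *PGM2* had 319.8 and 298 against 315 and 322. *CHA1* had 527 and 518 CPM with Yrr1Y and 430.2 and 427 with Yrr1S, the reverse of its order in YPD. The difference between the allele effects was tested in the same model, and 50 genes passed (0.867%), of which 33 were among the 51 called in YPD. Those 33 were chosen with the YPD difference that enters this test, so their share is a description. The medians of the trehalose, glycogen and stress lists in 4NQO were -0.21, -0.21 and -0.082, and that of the ribosome assembly factors was 0.051. All 7 trehalose genes were negative in 4NQO.

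In glycerol, 216 genes (3.75%) differed between the alleles, 172 higher with Yrr1Y. There 32 of the 42 higher genes kept their side, against 54.4% of all genes, and 3 of the 9 lower genes did. The higher genes had a median of 0.20 in glycerol. *FLP1*, *BDH1*, *GPX2*, *HXT7*, *AIM17*, *PHD1* and YNL134C were called higher with Yrr1Y in both media. *AIM17* had 555 and 518 CPM with Yrr1Y and 205 and 258 with Yrr1S in glycerol (1.21, SE 0.15, edgeR adjusted p = 8.67e-06), and *HXT7* had 237 and 224 against 86.4 and 74.6 (1.52, SE 0.21, edgeR adjusted p = 7.42e-05). *LSC2* was called in both with opposite signs, at 0.73 in YPD and -0.61 in glycerol. The allele effect in glycerol differed from that in YPD for 36 genes (0.624%), 11 of them among the 51. *SIT1*, at 1.22 in YPD, was at -0.58 in glycerol, and *EEB1*, at 1.47 in YPD, was at -0.07. *SNQ2*, not called in YPD, was at 0.51 in 4NQO (edgeR adjusted p = 0.354) and at 0.74 in glycerol (edgeR adjusted p = 0.00218), and its difference between media did not pass the test.

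**Figure D5:**
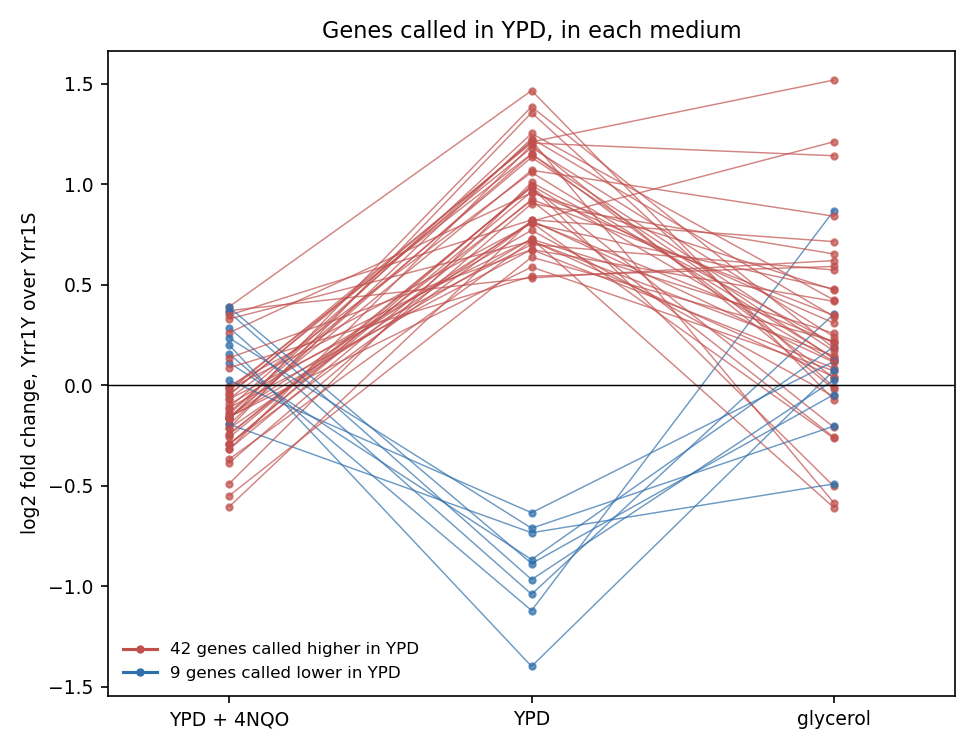
Log2 fold change of Yrr1Y over Yrr1S (y axis) of the 51 genes called in YPD, in YPD with 4NQO, in YPD and in glycerol (x axis), with 1 line per gene. The 42 higher genes (red) have medians of -0.15 in 4NQO, 0.94 in YPD and 0.20 in glycerol, and YPD is the medium in which they were chosen.

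Yrr1IE in YPD was compared with the same S3 and S4, so its values are only set beside those of Yrr1Y. *TSL1* had 77.5 and 72.9 CPM with Yrr1IE and a log2 fold change over Yrr1S of 0.08, where Yrr1Y had 1.36. *GSY1* was at -2.19 with Yrr1IE and at 0.93 with Yrr1Y, *HXT4* at -1.62 and 1.07, and *HXT7* at -2.25 and 1.21. *EEB1* was at 2.82 and 1.47, *TDH1* at 4.32 and 1.01, and *GPX2* at 1.67 and 1.20. The ribosome assembly factors had a median of -0.03 with Yrr1IE and of -0.36 with Yrr1Y, and the trehalose genes of -0.019 and 0.54.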

How the data were processed

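RNA-Seq of 18 unstranded libraries was analysed. The authors called bases with CASAVA 1.7, aligned reads to the S288c genome (R64) with TopHat2 2.0.12 and counted reads per gene with Rsubread. The deposited count table holds whole-number counts without normalization. The deposited FPKM table, made by the authors from the same totals, was used for levels between genes, gene names and coordinates. The authors' table of DESeq2 1.8.1 results (fold changes and p-values) was not used. Of 6713 loci, 6022 matched a RefSeq locus tag and 6010 had identical coordinates. Counts were tested with edgeR 4.0.16 in R 4.3.3. After filterByExpr 5766 loci remained, scaling was by TMM, and glmQLFit used a separate mean for each of 9 conditions over 18 libraries. Contrasts were tested two-sided with glmQLFTest and Benjamini-Hochberg adjustment over all genes, called at 0.05. CPM uses TMM-scaled totals, except for the sums over mating-type genes, which use raw totals. SE is the log2 fold change over the square root of F. DESeq2 1.42.0, other filters, other library sets and left-out libraries were alternatives. The method was tested on simulated data. Genes named are the Yrr1-linked genes, the called genes and members of gene lists by size of change or counts, and other list members named were singled out after their values were seen. Members, lists and rules were chosen with earlier results of these data known. Sequences and strands came from RefSeq R64, and Python 3.11.15 with pandas 2.3.3 and matplotlib 3.10.9 was used. Total counts per library ran from 1475372 to 2826771.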

Additional observations from a re-analysis of the deposited data

Results flagged for a closer look

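Several genes are listed here because the effect of the allele, Yrr1Y over Yrr1S, differed between media by a test of the difference itself, a contrast of contrasts in the same edgeR model with Benjamini-Hochberg adjustment. The values are the log2 difference between alleles in the second medium minus that in YPD. In 4NQO 50 genes passed. Among genes called in YPD and the 5 with the smallest adjusted p, the positive values were 1.33 for *CHA1*, 1.28 for *HXT1*, 1.33 for *RRP1* and 1.27 for *RPF1*. Negative values of the storage carbohydrate, glucose and glycolysis genes were -1.27 for *GLK1*, -1.57 for *TSL1*, -1.50 for *TDH1*, -1.42 for *GLC3*, -1.26 for *GSY2*, -1.42 for *GPH1*, -1.23 for *PGM2*, -0.74 for *ENO1*, -1.24 for *GSY1*, -1.40 for *HXK1*, -1.10 for *PYK2* and -0.79 for *TPS1*. Other negative values were -1.44 for *ADE17*, -1.19 for *NDI1*, -1.09 for *GCV2*, -1.25 for *LAP4*, -1.29 for *PIC2*, -1.23 for *TPO4*, -1.33 for *SIT1*, -1.07 for *EEB1*, -1.16 for YBR056W, -1.23 for *GPX2*, -1.29 for *SER3*, -1.03 for *AIM17*, -1.31 for *GAD1*, -1.17 for *VPS73*, -0.96 for *FET3*, -1.51 for *SIP2*, -0.77 for YNL134C and -0.89 for *LSC2*. *ADE17*, of purine synthesis, was not called in YPD, where it had 4995 and 5477 CPM with Yrr1Y and 3386 and 4507 with Yrr1S, and had 224 and 229 against 391 and 537 in 4NQO.

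In glycerol 36 genes passed. The positive values were 1.39 for *CHA1* and 1.99 for *HXT1*, and the negative values were -1.54 for *EEB1*, -1.34 for *LSC2*, -1.80 for *SIT1*, -1.36 for *TSL1*, -1.49 for *TPO4*, -1.001 for *GLK1*, -1.20 for *LAP4*, -1.07 for *FET3* and -1.18 for YBR056W. The YPD libraries enter both tests, and genes called in YPD were chosen for their difference there.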

How the results depend on the processing

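All 51 genes called in YPD kept their direction under each alternative tried. DESeq2's size factors in edgeR gave 40 higher and 9 lower genes, no filter 44 and 13, a filter of 20 CPM 55 and 13, the 4 libraries alone 29 and 11, and DESeq2 53 and 11. With only the 6 YPD libraries 58 were higher, and the lower genes moved from 9 to 25. Leaving out 1 of the 4 libraries gave from 4 to 35 higher and from 1 to 7 lower genes, with the lowest counts of higher genes without S2. For the difference between the allele effects, leaving out 1 library gave from 6 to 33 genes for 4NQO and from 6 to 26 for glycerol, and DESeq2 moved the latter from 36 to 68. The cause was not tested, beyond the fewer libraries of the fits that leave 1 out. Genes that kept their direction numbered 8 in 4NQO, and 35 in glycerol (33 with DESeq2's size factors). No paired analysis was possible because the library numbers are not shared between conditions. With 2 libraries per condition, the spread is borrowed from all conditions, and p-values measure the spread between these libraries.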

Other observations

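Of the 40 gene lists, 25 had no member called by edgeR in YPD. Among these, DESeq2 called *ALD4* and *JEN1* of gluconeogenesis and acetate use and YLR312C of the autophagy list. Phosphate acquisition genes leaned to the lower side with Yrr1Y, with a median log2 fold change of -0.17 over 16 genes. Both Yrr1Y libraries were below for 6 (37.5%, against 20.3% of all genes) and above for 3. Only 1 gene had an unadjusted p under 0.05 (6.25%, against 11.6% of all genes). With 1 library left out this median ran from -0.26 to -0.097. Genes of cAMP and Rim15 signalling had a median of 0.11 over 19 genes, 7 of which were higher at an unadjusted p under 0.05 (36.8%, against 6.36% of all genes). It was 0.30 without S3 and 0.081 without S2. Glycerol metabolism genes had a median of 0.22 over 12, with both Yrr1Y libraries above for 7 (58.3%, against 21.7% of all genes). In edgeR and in DESeq2 these 3 lists had 0 calls.

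Ergosterol synthesis genes had 19 of 25 negative values and a median of -0.043, histone genes a median of 0.012 over 10, and the proteasome genes -0.063 over 32, also without a call in either tool, and with 0, 0 and 1 genes at an unadjusted p under 0.05. With 1 library left out these medians ran from -0.15 to 0.0008, from -0.21 to -0.0014 and from -0.15 to -0.045. The de novo purine synthesis genes had no call among 13 in either tool. Of the 13, 3 were higher at an unadjusted p under 0.05 (23.1%, against 6.36% of all genes). The list's median was 0.14 in YPD (0.031 to 0.32 with 1 library left out) and -0.18 in 4NQO.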
